A study of Mus musculus with 6 samples.

Results

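The genes described here are 39 nuclear genes for subunits of the mitochondrial respiratory chain and ATP synthase, of which 38 were measured among the 18193 genes on the arrays. They were listed by name, with earlier results of these data known, and are only part of the subunit family. They fall into 22 genes of complex I, 4 of complex II, 5 of complex III, 6 of complex IV and 2 of complex V. Cox7b of complex IV was not analysed here, which leaves 5 genes of that complex. Expression was measured in mouse B-cell acute lymphoblastic leukaemia driven by a retroviral N-myc, with 3 Cdh1-intact and 3 Cdh1-deficient arrays, each from the GFP-positive marrow mononuclear cells of 1 moribund mouse of the C57BL/6 background. Both groups carried 2 copies of a conditional gene-trap allele of Cdh1, a coactivator of the anaphase-promoting complex encoded by the mouse gene Fzr1. Donors with the Mx1-Cre transgene became Cdh1-deficient, and donors without it stayed intact. All donors received pIpC, which switches the Mx1 promoter on, at 7 to 8 weeks of age, and 5-fluorouracil at 150 mg/kg given 2 days before marrow was taken, 4 weeks after the last pIpC. The intact donors therefore shared the allele, the pIpC and the 5-fluorouracil. The Mx1 promoter responds to interferon in many cell types, so Cre was not restricted to B cells. The comparison addressed how leukaemia cells with and without Cdh1 differ in their expression signature.

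The respiratory chain passes electrons from NADH and succinate to oxygen and pumps protons across the inner mitochondrial membrane, and ATP synthase uses the resulting gradient to make ATP. Complex I oxidizes NADH, complex II oxidizes succinate, complex III hands electrons to cytochrome c, complex IV reduces oxygen, and complex V is the ATP synthase. Most subunits are encoded in the nucleus and imported, while a small core is encoded by mitochondrial DNA, so assembly joins the products of both genomes. NRF1 and GABP, an ETS factor, are known activators of many nuclear subunit genes, and MYC proteins are known to raise mitochondrial biogenesis in proliferating lymphoid cells.

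The arrays were not alike in cell lineage transcripts, which bears on every value below. The B-cell markers measured, 9 of the 10 listed, averaged a log2 level of 8.92 on Cdh1-intact array 1, 4.97 on array 2 and 9.39 on array 3. In the Cdh1-deficient group their average was 9.14, 8.75 and 8.80. On Cdh1-intact array 2 these markers lay between 3.97 (Ms4a1) and 6.63 (Igll1), and T and NK cell markers, of which 9 were measured, had their highest mean there, 8.83 against 5.01 to 6.53 elsewhere. That array thus went against its B-cell label. Gzmb, Cd8a and Klrd1 were not raised on it, at 4.03, 5.27 and 2.86. Some T-cell transcripts were also raised on Cdh1-intact array 3, where Gzma reached 8.33 and Cd3g 7.95. On intact array 1 and the deficient arrays, Gzma was 4.16 to 4.40 and Cd3g 3.25 to 3.52. Leaving out intact array 2 therefore does not remove every raised T-cell transcript from the intact group. The 10 neutrophil markers were all at their highest on Cdh1-deficient array 2, where their mean was 11.40. Their means were 6.00 to 10.11 on the Cdh1-intact arrays and 9.27 to 11.40 on the Cdh1-deficient arrays. Elane, a protease of early granulocyte precursors, stayed at 5.22 to 5.69 on all arrays. Monocyte and macrophage markers, of which 9 were measured, had their highest mean on Cdh1-intact array 1, 7.62 against 4.97 to 6.76 elsewhere. So did erythroid markers, of which 7 were measured, at 7.70 against 5.91 to 6.74. Fzr1 itself lay at 8.04 to 8.92 on the intact and 7.73 to 8.22 on the deficient arrays. The overlap came from intact array 2 at 8.04, and without it the groups did not overlap (−0.91, SE 0.17, against −0.61, SE 0.28, with all arrays). The position of its probes relative to the trap cassette is unknown here, so these values do not check the labels. In sorted bulk cells, fewer cells of a type and less RNA per cell cannot be told apart. The medians of the subunit genes and of each complex, and several single members, are also given with the second array of either group left out. Ranges of the complex medians with any 1 of the 6 arrays left out, intact array 1 included, are given further below.

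The respiratory chain subunits differed little between Cdh1-deficient and Cdh1-intact leukaemias. Of the 38 genes, 19 were higher and 19 lower in Cdh1-deficient cells, beside 50.9% higher over all genes, and their median log2 difference was 0.0022 beside 0.0034 over all genes. Among the 2390 genes whose mean level reached that of the lowest member, 61.1% were higher and the median was 0.058. The balance of the members moved with single arrays. Without intact array 2 there were 13 higher and 25 lower with a median of −0.041, and without deficient array 2 there were 23 higher and 15 lower with a median of 0.058. The differences with all arrays ran from −0.28 for Sdha to 0.25 for Ndufb6, and 22 of the 38 were under 0.1 in size. With limma, 0 of the 38 had an adjusted p under 0.05, beside 0 of 18193 genes (0% called). At an unadjusted p under 0.05 there were again 0 members, beside 1000 genes or 5.5% over all genes. The arrays of the groups did not overlap for 3 members, Ndufb6, Ndufb5 and Ndufa8 (7.89%), beside 11.7% over all genes and 15.3% of the 2390 at comparable level.

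**Figure D1:**
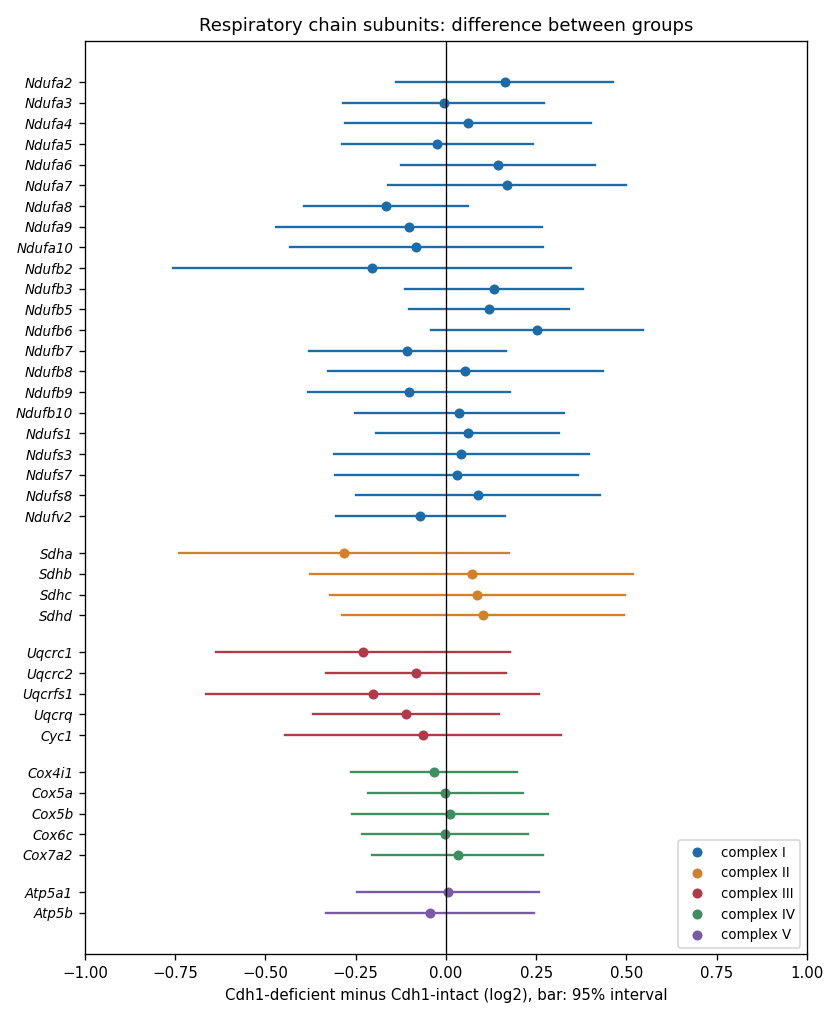
Difference between the groups for each of the 38 subunit genes, in log2 units, where values above 0 are higher in Cdh1-deficient cells. Points are limma estimates and bars are 95% intervals from 3 arrays per group, coloured by complex. All 38 intervals include 0, and the estimates run from −0.28 (Sdha) to 0.25 (Ndufb6).

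The size of change that these arrays leave possible can be read from the 95% intervals of the limma estimates. The intervals of 32 of the 38 members lay within 0.5 of zero on the log2 scale, which held for 44.9% of all genes. Among the 2390 genes at comparable level, 40.6% had such an interval. The widest interval, that of Ndufb2, an accessory subunit of complex I, ran from −0.76 to 0.35. The narrowest spread belonged to Cox5a, a structural subunit of complex IV, with an interval of −0.22 to 0.21. A member that missed the threshold is not thereby shown to be unchanged, but changes larger than these bounds lie outside the 95% interval of the respective gene.

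The intervals are computed in part from the spread between arrays of a group, which was small for most members. The pooled within-group SD of the members had a median of 0.122, and 31 of the 38 lay below the median of all genes, 0.197. For the 2390 genes at or above the lowest member's mean level the median SD was 0.20. Within the family, the complexes differed in spread. The median SD was 0.123 in complex I, 0.227 in complex II, 0.194 in complex III, 0.059 in complex IV and 0.104 in complex V. Level moved with this: the complex IV genes had mean levels of 12.73 to 13.26, where the 59 genes of that range had a median SD of 0.097. In the ranges of complexes I, II, III and V the median SD over all genes was 0.185, 0.215, 0.172 and 0.107. The part of signal level in the spread was not otherwise tested.

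**Figure D2:**
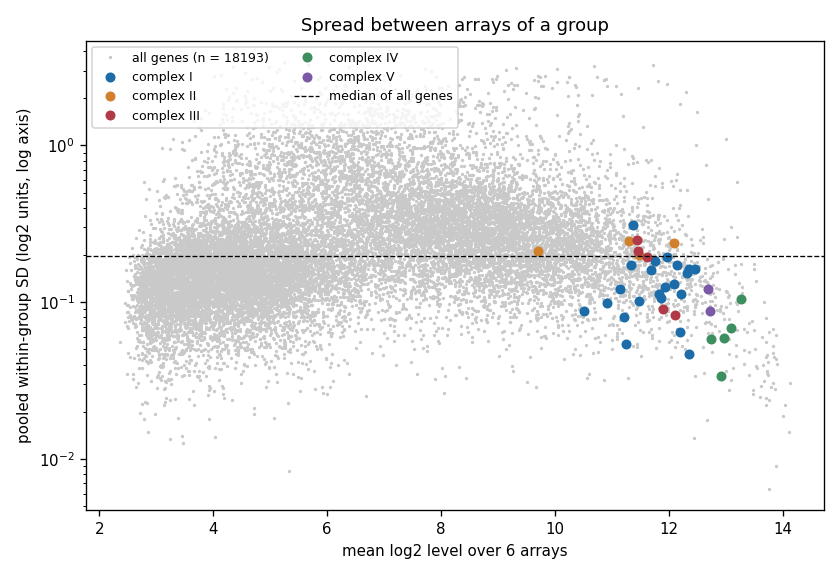
Pooled within-group SD (log2 units, log axis) against the mean log2 level over 6 arrays, for 18193 genes in grey and the 38 subunit genes coloured by complex. Of the 38 members 31 lie below the dashed line, the median SD of all genes at 0.197.

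Promoters of the subunit genes were searched for 4 motifs because these factors are the textbook regulators of the family. RefSeq promoter sequences (GRCm38.p6, 250 bases before to 50 after the annotated start) were matched for 28 of the 38 genes. The NRF1 core, searched like the others on both strands, was present for 6 of the 28 (21.4%), beside 5.19% of the 27025 genes with a promoter in the table. The ETS core CCGGAAG was likewise found for 6 (21.4%, beside 9.93% of all genes) and the YY1 core AAGATGGC for 4 (14.3%, beside 3.19%). The E-box CACGTG, which MYC proteins bind, occurred for 1 member, Ndufa7 (3.57%, beside 8.09%). These backgrounds hold genes of any expression level. No share was taken among genes expressed at a level comparable to the members. The stretches upstream of the start are shown for 4 members, the pair of complex II genes with opposite extremes on intact array 2 and the 2 non-overlapping complex I members with an upstream match. Capitals mark the matches, and none of the marked matches overlap each other.
Sdha, chr13:74350241-74350350, minus strand, 110 bases to the start: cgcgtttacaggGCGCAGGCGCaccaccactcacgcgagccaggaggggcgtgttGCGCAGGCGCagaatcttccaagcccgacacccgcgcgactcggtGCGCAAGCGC
Sdhd, chr9:50603850-50603959, minus strand, 110 bases to the start: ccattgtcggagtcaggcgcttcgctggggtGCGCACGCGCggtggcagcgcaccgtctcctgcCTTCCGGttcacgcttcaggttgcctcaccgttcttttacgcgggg
Ndufa8, chr2:36049339-36049448, minus strand, 110 bases to the start: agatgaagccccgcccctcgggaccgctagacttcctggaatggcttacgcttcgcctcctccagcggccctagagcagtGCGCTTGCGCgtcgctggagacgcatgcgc
Ndufb6, chr4:40279562-40279671, minus strand, from 250 to 141 bases before the start: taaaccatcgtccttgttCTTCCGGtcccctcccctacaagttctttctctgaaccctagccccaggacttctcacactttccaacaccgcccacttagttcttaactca
Sdha carried 3 NRF1 matches, beginning at positions −98, −55 and −10 from the start, and Sdhd 1 at −79 with an ETS match at −46. Ndufa8 carried 1 NRF1 match at −30 and Ndufb6 an ETS match at −232. The other NRF1 matches were in Ndufa5, Ndufa6 and Uqcrc1. A match describes the letters only and is not evidence of binding.

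Complex I, the largest of the complexes, had 13 of 22 genes above and 9 below the intact level, with a median difference of 0.040. The direction turned without intact array 2, with 10 higher, 12 lower and a median of −0.016, and without deficient array 2 there were 15 higher with a median of 0.092. Its 5 core subunits measured here carry electrons through iron-sulphur clusters or build the arm that does. Ndufs1, the large iron-sulphur subunit near the NADH site, lay at 10.37, 10.50 and 10.59 on the intact arrays and at 10.50, 10.53 and 10.62 on the deficient arrays. The intact and deficient arrays overlapped, and the difference was 0.060 (SE 0.10; limma adjusted p = 0.922). Ndufs3, Ndufs7 and Ndufs8 differed by 0.043, 0.030 and 0.088, and Ndufv2 by −0.072, so 4 of the 5 core subunits were higher by less than 0.1. For each of the 5 the groups overlapped.

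The accessory subunits of complex I held the only members whose groups did not overlap. Ndufb6, an accessory subunit of the membrane arm, lay at 11.85, 11.70 and 11.86 on the intact arrays and at 12.15, 11.88 and 12.14 on the deficient arrays. Every deficient array was above every intact one, although deficient array 2 exceeded the highest intact array only narrowly. The difference of 0.25 (SE 0.12) was the largest of the 38 upward and had an unadjusted limma p of 0.079 (adjusted p = 0.849). Without deficient array 2 it was 0.34 (SE 0.12) with an unadjusted p of 0.035, the only member under 0.05 without that array, where 3.61% of all genes were (adjusted p = 0.974). In that comparison 7 of the 38 members did not overlap between groups, beside 19.9% of all genes. Ndufb5, also of the membrane arm and the only member on chromosome 3, lay at 12.34, 12.27 and 12.25 on the intact and at 12.39, 12.38 and 12.46 on the deficient arrays. Its difference of 0.12 (SE 0.090; adjusted p = 0.849) was small, with groups just separated. None of the members lies on chromosome 5.

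Ndufa8, an accessory subunit on the intermembrane-space side of the complex, was the member that separated downward. It lay at 11.40, 11.25 and 11.36 on the intact arrays and at 11.18, 11.17 and 11.17 on the deficient arrays. The 3 deficient arrays were nearly identical (SD 0.0057) and below every intact array, and the difference was −0.17 (SE 0.092; limma adjusted p = 0.849). Its promoter is the one shown above with a single NRF1 match. Without intact array 2 the groups still did not overlap for Ndufa8, Ndufb5 and Ndufb6, and the differences were −0.21, 0.11 and 0.20. In that comparison 6 of the 38 members did not overlap, beside 21.4% of all genes, and 0 had an unadjusted p under 0.05, beside 6.17%.

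The remaining accessory genes of the A series spread to both sides of zero. Ndufa2, Ndufa6 and Ndufa7, which sit in the NADH-oxidizing arm, differed by 0.16, 0.14 and 0.17, each with intact array 2 as the lowest of the 6 arrays. Without that array the differences were 0.068, 0.072 and 0.068. Ndufa7 lay at 12.27, 12.04 and 12.41 on the intact and at 12.43, 12.29 and 12.51 on the deficient arrays, with overlap. Ndufa9 and Ndufa10 differed by −0.10 and −0.082, and Ndufa3, Ndufa4 and Ndufa5 by −0.0060, 0.062 and −0.024. Ndufa4 is named for complex I, but its protein is now assigned to complex IV. The complex IV genes here differed by −0.033 to 0.032, and the 95% interval of Ndufa4, −0.28 to 0.40, spanned that range. Its groups overlapped.

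Among the B series, which builds the membrane arm, Ndufb2 stood out for its spread and not for its difference. It lay at 11.26, 11.39 and 11.79 on the intact arrays and at 11.58, 10.91 and 11.33 on the deficient arrays. The highest and the lowest array thus belonged to different groups but the groups overlapped, and the within-group SD of 0.310 was the largest of the 38. Its difference was −0.21 (SE 0.22; limma adjusted p = 0.876), and without deficient array 2 it was −0.024 (SE 0.21). Ndufb3, Ndufb8 and Ndufb10 differed by 0.13, 0.054 and 0.037, and Ndufb7 and Ndufb9 by −0.11 and −0.10, all 5 with overlapping groups.

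Complex II feeds electrons from succinate into the chain and is the only complex made of nuclear products alone. Its 4 subunits did not move together: 3 were higher and 1 lower, with a median difference of 0.079. Sdha, the flavoprotein that binds succinate, had the most negative difference of all members. It lay at 11.26, 11.63 and 11.45 on the intact arrays and at 11.37, 10.82 and 11.29 on the deficient arrays. The low value belonged to deficient array 2, and the other deficient arrays lay within the intact range. The difference was −0.28 (SE 0.19; limma adjusted p = 0.849), and without deficient array 2 it was −0.11 (SE 0.15; adjusted p = 0.974).

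Sdhb, the iron-sulphur subunit, and Sdhc and Sdhd, the membrane anchors, differed by 0.071, 0.086 and 0.10. Sdhd lay at 11.58, 11.10 and 11.58 on the intact arrays and at 11.58, 11.51 and 11.48 on the deficient arrays. Its 1 low array was the T-cell-marked intact array 2, on which Sdha had its highest value of the 6, so 2 subunits of the same complex went in opposite directions there. Without that array the difference of Sdhd was −0.058 (SE 0.11). Both genes carry NRF1 matches upstream, as printed above. Sdhc lay at 9.44, 9.78 and 9.79 on the intact and at 9.66, 9.59 and 10.01 on the deficient arrays, with overlap. The median of complex II was 0.0086 without intact array 2, 0.14 without deficient array 2 and −0.055 without deficient array 3.

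Complex III was the only complex in which every member was lower in Cdh1-deficient cells, 5 of 5, with a median difference of −0.11. None passed. Further complex III subunits were listed among the 39 other subunits below and were not counted by complex. Uqcrc1, a core protein of the matrix side, lay at 11.48, 11.64 and 11.63 on the intact arrays and at 11.57, 11.03 and 11.46 on the deficient arrays. Uqcrfs1, the Rieske iron-sulphur protein, lay at 11.62, 11.47 and 11.55 on the intact and at 11.55, 10.94 and 11.54 on the deficient arrays. For both genes deficient array 2 was well below the rest. Deficient array 3 lay just under the lowest intact array for Uqcrc1 and within the intact range for Uqcrfs1. The differences were −0.23 (SE 0.17; adjusted p = 0.849) and −0.20 (SE 0.19; adjusted p = 0.859) by limma.

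Cyc1, the cytochrome c1 that passes electrons to cytochrome c, showed the same array as its lowest, with 11.65, 11.55 and 11.73 on the intact and 11.77, 11.28 and 11.68 on the deficient arrays. Uqcrc2, the other core protein, and Uqcrq, a small subunit next to cytochrome b, differed by −0.084 and −0.11 and were also lowest there. With deficient array 2 left out the complex III median was −0.027, 4 of 5 genes were lower, and Uqcrc1 and Uqcrfs1 differed by −0.069 and −0.0034. With intact array 2 left out it was −0.11, all 5 genes were lower, and Uqcrc2 and Uqcrfs1 did not overlap between groups. In that comparison of 5 arrays 21.4% of all genes did not overlap.

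**Figure D3:**
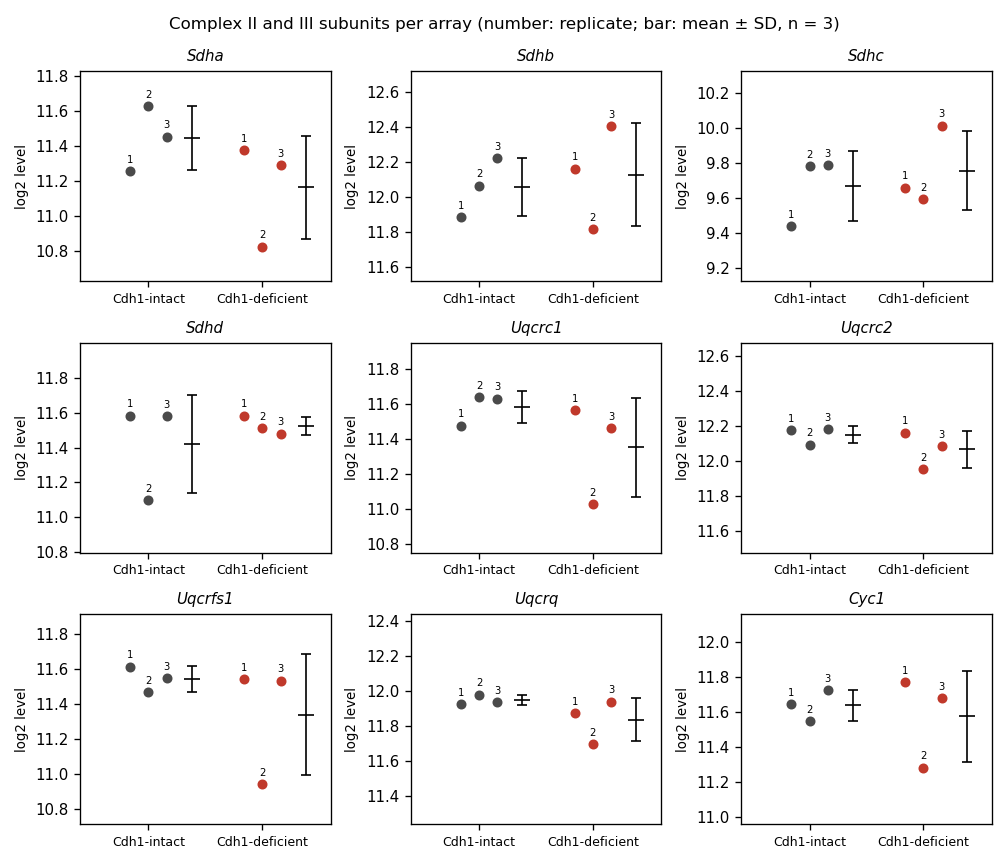
Log2 levels of the 4 complex II and 5 complex III subunit genes on each array, with the replicate number beside each point and the mean ± SD of 3 arrays as a black bar. Cdh1-deficient array 2 is the lowest of the 6 arrays for all 5 complex III genes, for example Uqcrfs1 at 10.94.

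Among the members, those of complex IV, the cytochrome c oxidase, varied least. Cox4i1, the ubiquitous isoform of subunit IV, lay at 12.91, 13.00 and 13.06 on the intact arrays and at 12.97, 12.91 and 12.98 on the deficient arrays. Cox5a lay at 12.90, 12.89 and 12.97 on the intact and at 12.93, 12.92 and 12.90 on the deficient arrays. The groups overlapped for both genes, with differences of −0.033 (SE 0.094) and −0.0013 (SE 0.088). Cox5b, which binds zinc in the matrix domain, differed by 0.011 and Cox6c by −0.0017. Cox7a2, the broadly expressed isoform of subunit VIIa, lay at 13.02, 13.05 and 13.18 on the intact and at 13.13, 13.07 and 13.14 on the deficient arrays, with overlap and a difference of 0.032 (SE 0.097). The complex IV median of −0.0013 was −0.028 without intact array 2 and −0.0033 without deficient array 2, and stayed within 0.1 of zero whichever of the 6 arrays was omitted.

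Complex V was represented by Atp5a1 and Atp5b, the alpha and the catalytic beta subunit of the F1 head. Atp5b lay at 12.75, 12.67 and 12.72 on the intact arrays and at 12.82, 12.49 and 12.71 on the deficient arrays. Atp5a1 lay at 12.77, 12.66 and 12.76 on the intact and at 12.82, 12.61 and 12.77 on the deficient arrays. Both genes were highest on deficient array 1 and lowest on deficient array 2. The differences were 0.0057 for Atp5a1 (SE 0.10; limma adjusted p = 0.993) and −0.043 for Atp5b (SE 0.12; adjusted p = 0.951). The median of the pair was −0.047 without intact array 2 and 0.057 without deficient array 2.

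Many members had their lowest level on 1 deficient array. Cdh1-deficient array 2 was the lowest of the 6 for 15 of the 38 members (39.5%), where it was the lowest for 17.4% of all genes and for 16.9% of the genes at or above the lowest member's level. Those 15 included all 5 genes of complex III, both of complex V, 6 of complex I and 2 of complex II, and none of complex IV. Relative to each gene's own mean over the 6 arrays, that array lay at −0.32 on average for complex III, −0.21 for complex II, −0.16 for complex V, −0.094 for complex I and −0.031 for complex IV. Cdh1-intact array 2 was the lowest for 12 members, 31.6% beside 24.0% of all genes and 33.3% at comparable level. Neutrophil markers were at their highest on deficient array 2, as given above, and their part in the lower subunit levels was not tested.

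**Figure D4:**
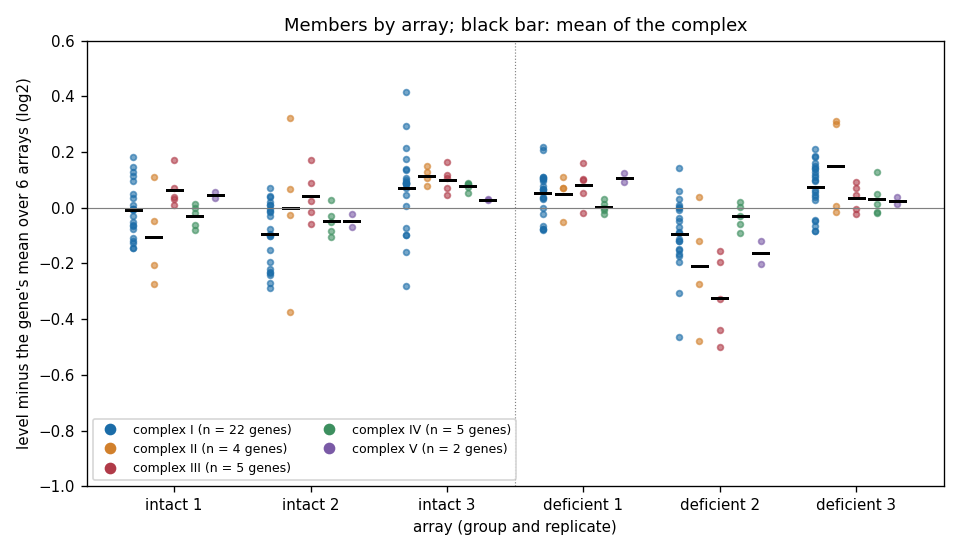
Level of each subunit gene minus its own mean over the 6 arrays (log2), by array, coloured by complex, with a black bar at the mean of each complex. On Cdh1-deficient array 2 the complex III genes average −0.32 and the complex IV genes −0.031.

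The complexes could thus be ordered by their median difference only loosely. The medians were 0.079 for complex II, 0.040 for complex I, −0.0013 for complex IV, −0.019 for complex V and −0.11 for complex III. The median level of a complex on each array had a pooled within-group SD of 0.125, 0.095, 0.057, 0.103 and 0.187, in the same order. That SD describes levels on single arrays and is not the error of these median differences. Subunits of a complex are not replicates, and the difference between complexes was not tested.

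Related mitochondrial genes were read from 9 lists. Of 39 other respiratory chain subunits 34 were measured, 18 higher and 16 lower with a median of 0.017, and 0 had an unadjusted p under 0.05. Ndufc1, a membrane-arm subunit of complex I, had the smallest unadjusted limma p upward, with a log2 difference of 0.32 (SE 0.14) and no overlap. Cox7c of complex IV had the smallest p downward, with a log2 difference of −0.63 (SE 0.29) and overlapping groups. Both had an adjusted p of 0.849 by limma. The Cox7c probe set used had a mean level of only 7.53, and a second one, at 6.24, differed by −0.43. Complex I assembly factors had 10 of 13 measured genes higher with a median of 0.15, from Ndufaf1 at 0.39 (SE 0.18) to Ndufaf2 at −0.42 (SE 0.21). Assembly factors of the other complexes had 16 of 29 higher with a median of 0.022, led by the copper chaperone Cox19 at 0.73 (SE 0.29), with Sdhaf2 at −0.32 (SE 0.26). No gene of these lists passed over all genes.

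Citrate cycle and pyruvate dehydrogenase genes, which supply the NADH and succinate, had 11 of 16 measured genes higher with a median of 0.10. Mdh2, the mitochondrial malate dehydrogenase, lay at 12.73, 12.67 and 12.90 on the intact and at 13.03, 13.01 and 13.00 on the deficient arrays. The groups did not overlap, and the difference was 0.25 (SE 0.10; limma adjusted p = 0.849). Suclg1, the alpha subunit of succinyl-CoA ligase, differed by −0.28 (SE 0.12), again without overlap. Mitochondrial ribosomal proteins had 46 of 74 genes higher with a median of 0.058, and 7 of the 74 an unadjusted p under 0.05, 5 higher and 2 lower, beside 5.5% of all genes. Of those 5, 4 lie on chromosome 3 or 5 (Mrpl1, Mrps17, Mrps18c and Mrps21). Mrpl49 differed by 0.76 and Mrpl52 by −0.34. Import genes had 12 of 19 higher with a median of 0.061, among them Tomm7 of the outer-membrane translocase at 0.28 (SE 0.10) and, downward, Timm17b of the inner membrane at −0.44 (SE 0.21).

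The regulators of mitochondrial biogenesis gave 2 of 16 genes with an unadjusted p under 0.05, in opposite directions, beside 5.5% of all genes, and 0 that passed. Pprc1, a coactivator that works with NRF1, lay at 9.35, 9.33 and 8.95 on the intact arrays and at 9.60, 9.71 and 9.77 on the deficient arrays. Tfb2m, a transcription factor that opens mitochondrial promoters for the polymerase, lay at 9.61, 9.56 and 9.33 on the intact and at 9.17, 9.13 and 9.08 on the deficient arrays. For both genes the groups did not overlap, with differences of 0.48 (SE 0.14) and −0.38 (SE 0.11) and limma adjusted p = 0.849. Nrf1 and Gabpa, whose motifs were counted above, differed by −0.12 (SE 0.18) and 0.12 (SE 0.13) with overlap, and Tfam, the packaging factor of mitochondrial DNA, by 0.14 (SE 0.12). Of the 13 genes of the mitochondrial genome listed, 1 could be read under the symbol ND5, a proton-pumping core subunit of complex I, chosen here after the list failed to match by name. It lay at 11.75, 11.32 and 11.34 on the intact and at 11.06, 12.09 and 11.22 on the deficient arrays. The deficient group held both its lowest and its highest array, deficient array 2, on which many nuclear members were at their lowest.

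Tissue-restricted isoforms of the subunits contained the largest difference among the related genes. Cox6a2, the heart and skeletal muscle isoform of complex IV subunit VIa, lay at 7.76, 6.50 and 6.44 on the intact arrays and at 10.38, 8.69 and 10.73 on the deficient arrays. All deficient arrays exceeded all intact ones, by a log2 difference of 3.04 (SE 0.63, 95% interval 1.49 to 4.58). The unadjusted limma p was 0.0031 and the adjusted p 0.849, so it did not pass. A second probe set of the gene differed by 3.02, and omitting any of the 6 arrays gave differences of 2.64 to 3.66. Cox6a1, the ubiquitous isoform, lay at 13.51, 13.33 and 13.44 on the intact and at 13.59, 13.55 and 13.59 on the deficient arrays, a difference of 0.15 (SE 0.096). The other 8 tissue isoforms included Cox6b2 at −0.45 (SE 0.22), without overlap, and Cox4i2 at 0.024, and 4 of those 8 were higher. Cox6b2 had levels of only 4.67 to 5.69 over the 6 arrays. Its difference ran from −0.60 to −0.22 with any 1 array left out.

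**Figure D5:**
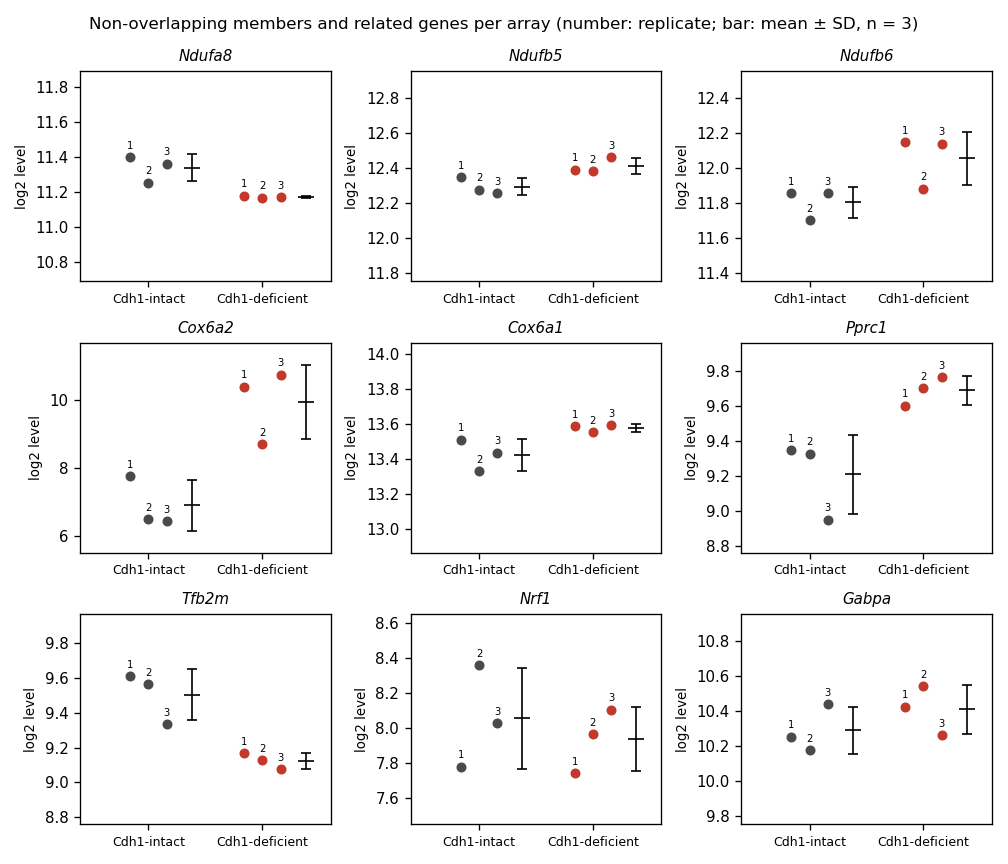
Log2 levels per array of the 3 members whose groups did not overlap (Ndufa8, Ndufb5 and Ndufb6) and of 6 related genes, with the replicate number beside each point and the mean ± SD of 3 arrays as a black bar. The axis ranges differ between panels. Cox6a2 spans 6.44 to 7.76 in the Cdh1-intact and 8.69 to 10.73 in the Cdh1-deficient group.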

How the data were processed

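The authors deposited log2 expression values for 6 arrays, summarised per probe set with RMA according to the labels (per the submitters' processing notes, without a version). RMA evens out array distributions, so a change in total RNA per cell cannot be seen. Gene symbols came from GEO's annotation of the platform, in which 34945 of 45101 probe sets carried exactly 1 symbol. Where a gene had several such probe sets, the brightest on average was used. Differences were tested two-sided with limma 3.58.1 under R 4.3.3 (lmFit, then eBayes with no trend), the tool that the series design names, with 95% intervals from the same fit, Benjamini-Hochberg adjustment over 18193 genes and a threshold of 0.05. The fit was tested on simulated data. A permutation of 3 against 3 arrays cannot give a two-sided p below 0.1, so none was used. The number of arrays limits the precision. RNA was taken from separate moribund mice, per the labels' protocols. Levels of different probe sets were not compared.

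The members, gene lists, motifs and alternatives were chosen with earlier results of these data known. Values on each array are given for the member of smallest p in each direction in each complex, for members whose groups did not overlap, and for those of largest and smallest spread. Of each related list the gene of smallest p in each direction is named. Ndufs1, Ndufa7, Sdhc, Uqcrfs1, Cyc1, Nrf1, Gabpa, Tfam, Cox6a1, Cox4i2, Mrpl1, Mrps17, Mrps18c, Mrps21 and ND5 are named in addition, chosen after their values were seen, as were the split of complex I by role and the set of genes at or above the lowest member's level and the genes in each complex's level range. Alternatives were other scalings, level filters, probe set rules, variance models, a replicate block and each array left out. Chromosomes came from a RefSeq gene table of GRCm38.p6. No genome build is named for the array data.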

Additional observations from a re-analysis of the deposited data

How the results depend on the processing

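Under the 17 alternatives run, 0 members and 0 genes passed at an adjusted p under 0.05, or under 0.10 with all arrays, where 1000 genes had an unadjusted p under 0.05. With 1 array left out, members with an unadjusted limma p under 0.05 numbered 0 to 1, where 2.43% to 9.62% of all genes were under it. Members without overlap then numbered 5 to 8, where 17.3% to 28.4% of all genes did not overlap. With the mean of all probe sets 5 members did not overlap, where 2179 of 18193 genes did not. The members higher numbered 13 to 23 with 1 array left out. The complex II median ran from −0.055 to 0.15 with 1 array left out. In the same comparisons the complex I median ran from −0.016 to 0.092 and that of complex III from −0.16 to −0.027. The medians of complexes IV and V ran from −0.028 to 0.036 and from −0.077 to 0.057. Of the 38 members 18 kept their direction in every alternative. With quantile normalization Ndufa3 was at 0.0013, Cox5a at 0.018 and Atp5a1 at −0.011. With median centring Ndufa3 was at 0.0078, Cox5a at 0.013 and Cox6c at 0.012. With the mean of all probe sets Ndufa3 was at 0.014, Cox5b at −0.043, Cox6c at 0.041 and Atp5a1 at −0.041, and without suffixed probe sets, which measured 30 members, Ndufa3 was at 0.077 and Cox5b at −0.052. With 1 array left out the differences that changed sign ran from −0.078 to 0.041 for Ndufa3, −0.043 to 0.18 for Ndufa4, −0.092 to 0.016 for Ndufa5, −0.18 to 0.018 for Ndufa9, −0.18 to 0.052 for Ndufa10, −0.074 to 0.16 for Ndufb8, −0.030 to 0.11 for Ndufb10, −0.064 to 0.13 for Ndufs3, −0.061 to 0.12 for Ndufs7, −0.067 to 0.23 for Sdhb, −0.042 to 0.17 for Sdhc, −0.058 to 0.18 for Sdhd, −0.16 to 0.085 for Cyc1, −0.073 to 0.0014 for Cox4i1, −0.017 to 0.024 for Cox5a, −0.050 to 0.060 for Cox5b, −0.044 to 0.036 for Cox6c, −0.00031 to 0.083 for Cox7a2, −0.038 to 0.067 for Atp5a1, −0.12 to 0.047 for Atp5b, −0.26 to 0.034 for Nrf1 and −0.33 to 0.18 for ND5. The cause was not tested.

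Same-numbered arrays of the groups deviated together at r = −0.14, 0.011 and 0.041 across genes. Differently numbered arrays gave r = −0.21 to 0.22, so these correlations cannot settle whether the numbers pair the mice. With the replicate number as a block 0 members passed, the members' median stayed at 0.0022 and the lowest adjusted p over all genes was 0.837.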

Other observations

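The related mitochondrial genes were also counted by chromosome, with chromosomes 3 and 5 set apart after values were seen and earlier results for these chromosomes were known. Of the 20 related genes on these chromosomes 18 were higher, with a median difference of 0.26, and 13 were higher with no overlap between groups. They included Cox19, Mdh2, Cox6a1, Tomm7, Mrpl1, Mrps17 and Mrps18c on chromosome 5 and Ndufc1 and Mrps21 on chromosome 3. Mrpl1 differed by 0.73, Mrps17 by 0.37, Mrps18c by 0.36 and Mrps21 by 0.42. Of the 190 related genes on other chromosomes 109 were higher, with a median of 0.027, and 8 were higher with no overlap. Over all genes, 65.7% of those on chromosomes 3 and 5 were higher with a median of 0.098, against 49.0% and −0.0043 elsewhere. Also over all genes, 20.6% of those on chromosomes 3 and 5 and 4.88% of the others were higher without overlap. Of the 38 subunit genes 37 lay elsewhere, and the 1 on chromosome 3, Ndufb5, was among the 2 members higher without overlap. Without Ndufb5 the members' median was −0.0013. No test between chromosomes was run.

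The members were covered by 82 probe sets, and 15 of the 38 genes had a single one. Of the 44 probe sets not used, 30 had a mean level over 8, and 24 of those 30 gave the same direction as the chosen one. The other 14 had mean levels of 3.24 to 7.62.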
